A study of Homo sapiens with 6 samples.

Results

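The mammary lineage and stem surface markers are 10 genes that breast biology uses to tell luminal, basal and stem-like cells apart. They were picked by name, each by exact gene symbol, from the 26822 symbols of an RNA-seq table, and all 10 were found, each on 1 row. The table compares MCF10A cells treated for 72 hours with 30 nM siRNA that targets PAX9 (siPAX9, 3 samples) or with non-targeting siRNA (siNT, 3 samples). MCF10A is an established, non-tumour human breast epithelial line, and both groups were grown in the same medium with horse serum, epidermal growth factor, hydrocortisone, cholera toxin and insulin. PAX9 is a transcription factor, and the comparison asks which mRNAs depend on its presence in this line. A single line and a single set of siRNAs limit it as a model.

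The mammary epithelium has an inner luminal layer, whose identity rests on the transcription factors GATA3, FOXA1 and ELF5, and an outer basal layer with contractile and stem-like cells. Cell sorting separates these populations by surface proteins: luminal cells carry much EPCAM and CD24, whereas basal cells carry more CD44, MME (CD10), THY1 (CD90) and NGFR. ALDH1A3 makes retinoic acid from retinaldehyde and accounts for much of the ALDEFLUOR staining used to find progenitor and stem-like breast cells.

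Levels are FPKM, fragment counts scaled for transcript length and library size. The table holds 1 pooled value per group, so no value has an error or an n and no test across samples could be made from these values. The authors' own test columns were not used. The depth of the libraries is not in the table and the precision of each value is unknown. A gene was called higher or lower when its siPAX9 and siNT values differed by at least 2-fold and the higher value was at least 1 FPKM. Of 13622 named genes at or above that level, 7.75% were called higher in siPAX9 and 7.22% lower. In bulk RNA, more cells of a type and more RNA per cell cannot be told apart. PAX9 itself was at 2.80 FPKM in siNT and 0.325 FPKM in siPAX9, 8.60-fold lower. It reached 1 FPKM in siNT only, and with 1 added to each value its log2 change went from -3.10 to -1.52. Its locus of 516 kb also holds SLC25A21, at 0.861 and 0.487 FPKM, SLC25A21-AS1, at 1.08 and 0.919 FPKM, and MIR4503, listed at 0 in both groups.

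Of the 10 markers, 8 reached 1 FPKM in the higher group, 4 of these were higher in siPAX9 (CD24, ALDH1A3, MME and FOXA1) and 2 were lower (NGFR and EPCAM). CD44 and GATA3 lay between the thresholds, and ELF5 and THY1 stayed under 1 FPKM in both groups. NGFR reached 1 FPKM in siNT only, so it passed through the group in which it was high. The called markers differed in direction among both luminal and basal genes: luminal CD24 and FOXA1 were higher, luminal EPCAM was lower, basal MME was higher and basal NGFR was lower. The lower side rests on EPCAM alone for the luminal genes and on NGFR alone for the basal genes. The EPCAM call was lost with 1 added to each FPKM, centring or rescaling. The NGFR call was lost when both groups had to reach 1 FPKM. The median log2 change of the 8 was 0.83, beside -0.07 over all 13622 genes.

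**Figure D1:**
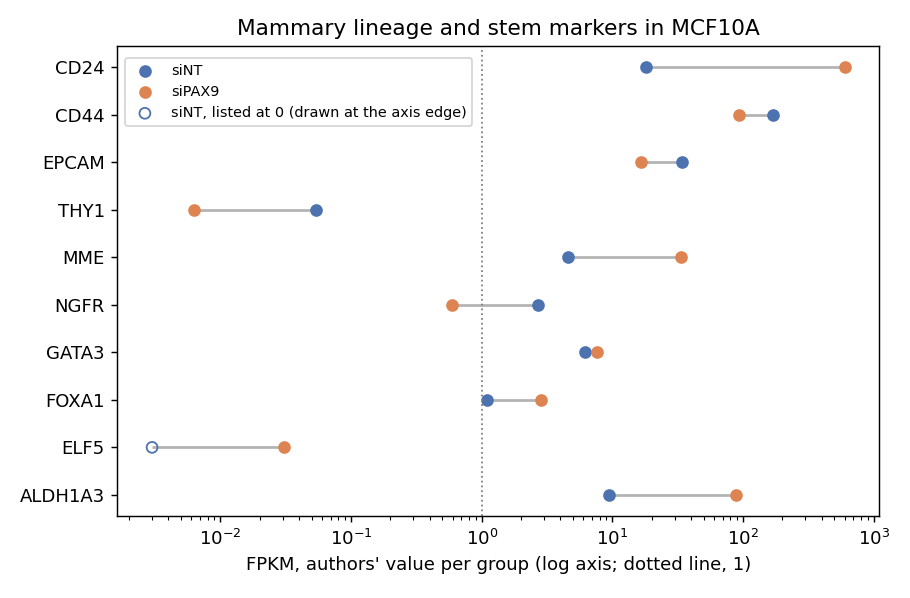
FPKM of the 10 markers on a log axis, 1 point per group (blue, siNT; orange, siPAX9), as the authors' pooled values without error. The dotted line is 1 FPKM. CD24, MME, ALDH1A3 and FOXA1 lie to the right in siPAX9, and ELF5 and THY1 lie left of the line in both groups. The siNT point of ELF5 is listed at 0 and is drawn at the edge.

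CD24 is a small surface glycoprotein held in the membrane by a lipid anchor. It had the largest change of the markers, from 18 FPKM in siNT to 598 FPKM in siPAX9, which is 33.3-fold or 5.06 on the log2 scale. Among the 13622 genes, 134 had a larger increase, a group that includes the 76 genes listed at 0 in siNT. Its level went from the 66.1 percentile of these genes to the 99.3 percentile. It was the third of the 10 markers in siNT and the first in siPAX9.

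The position of CD24 in the table is unusual. The table places it at chrY:21034387-21438350 (hg19), a span of 404 kb, whereas RefSeq places the gene on chromosome 6 in GRCh38.p14. In GRCh37, which shares its coordinates with hg19, GENCODE annotates a processed pseudogene of 243 bases, CD24P4, inside that span, at chrY:21154353-21154595 on the minus strand. Its sequence is shown because it is the stretch that stands for CD24 in the files' build, with its first and last codon in capitals, and CD24P2, a copy on chromosome 15 (chr15:56363619-56363837, plus strand), is shown beside it with capitals where an aligned base differs.
CD24P4: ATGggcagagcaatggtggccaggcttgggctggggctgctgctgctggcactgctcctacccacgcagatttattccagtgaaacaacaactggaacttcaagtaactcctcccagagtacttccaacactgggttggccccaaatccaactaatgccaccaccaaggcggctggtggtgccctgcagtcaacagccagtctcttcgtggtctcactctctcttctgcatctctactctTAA
CD24P2: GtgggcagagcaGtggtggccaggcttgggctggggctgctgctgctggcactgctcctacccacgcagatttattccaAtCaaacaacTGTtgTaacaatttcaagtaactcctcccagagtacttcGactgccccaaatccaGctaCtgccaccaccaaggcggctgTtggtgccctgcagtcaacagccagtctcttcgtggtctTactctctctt
The CD24P4 sequence is an open frame of 81 codons with its only stop at the end. Over 216 aligned bases the copies shared 203, an identity of 94.0%, while 27 bases of CD24P4 and 3 of CD24P2 had no aligned partner, which the capitals do not mark. Of 3 RefSeq promoters of CD24, 1 matched GRCh37 at 98.3% identity over 300 bases and 1 at 97.9% over 145 bases, both on chromosome Y, and the other gave no match. In the same build, neither of the stretches searched around the Y copy aligned to chromosome 6 at 80% identity or more over 150 bases.

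Rows without a gene symbol lay over the chromosome 15 copy, and their values moved the same way. The largest, of 111 bases at chr15:56365186-56365296, was at 28.1 FPKM in siNT and 831 FPKM in siPAX9, 29.6-fold higher. A row of 251 bases at chr15:56364873-56365123 went from 10.4 to 360 FPKM (34.7-fold), and one of 411 bases at chr15:56365580-56365990 from 4.21 to 153 FPKM (36.3-fold). Another row, of 319 bases at chr15:56364172-56364490, was listed at 0 in siNT and at 14.5 FPKM in siPAX9. None of them overlaps the annotated CD24P2 itself. They lie over, or partly over, sequence 93.8% to 96.5% identical to the Y copy.

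A further row without a symbol, of 164 bases on chromosome 8, went from 3.65 to 112 FPKM (30.6-fold) over sequence 93.6% identical to the Y copy. The 5 unnamed rows over sequence that aligned to the Y copy were all higher in siPAX9, and the 4 with a value in siNT differed by 29.6-fold to 36.3-fold, close to the 33.3-fold of the CD24 row. Rows this short make FPKM coarse, and how reads were divided between the copies was not tested. Named rows over such sequence did not share this: PSAT1, a serine synthesis gene whose 33019-base locus on chromosome 9 holds an alignment of 288 bases at 84.4% identity, was at 98.4 and 22.6 FPKM, and TTTY14, which shares the CD24 span, was listed at 0 in both groups. The unnamed rows and CD24 share near-identical sequence, so they are not independent measurements of CD24.

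**Figure D2:**
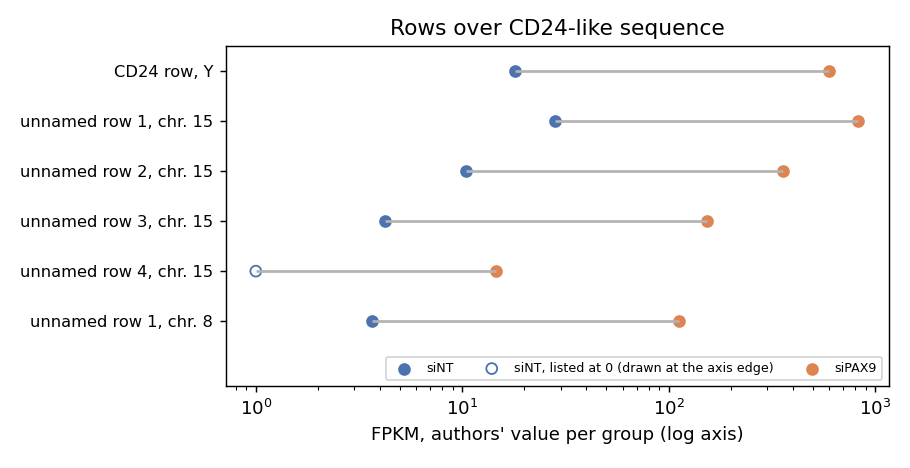
FPKM, on a log axis, of the CD24 row on chromosome Y and of 5 rows without a symbol over CD24-like sequence (blue, siNT; orange, siPAX9; open, listed at 0 and drawn at the edge). The 4 unnamed rows with a value above 0 in siNT differ from it by 29.6-fold to 36.3-fold, near the CD24 row.

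CD44, the main receptor for hyaluronan, was the most abundant marker in siNT, at 169 FPKM, and was at 92.5 FPKM in siPAX9 (chr11:35160417-35253949). The difference of 1.83-fold was under the threshold, with a log2 change of -0.87. The ratio of CD44 to CD24 FPKM was 9.43 in siNT and 0.155 in siPAX9, so the order of these rows turned over. The ratio uses the CD24 row alone. How reads were divided between CD24-like copies was not tested, so the CD24 level in it is uncertain. Sorting schemes read both as surface protein, which was not measured here.

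EPCAM, an epithelial adhesion molecule, was at 34.3 FPKM in siNT and 16.7 FPKM in siPAX9 (chr2:47596287-47614167), 2.05-fold lower. MIR559, in the same locus, was listed at 0 in both groups. The change of EPCAM lies just past the threshold, at -1.04 on the log2 scale. With 1 added to each value it fell just short of the threshold, centring on the median of all genes gave -0.97, and scaling both groups to the same FPKM sum gave -0.77.

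MME, the zinc peptidase neprilysin (CD10) that marks myoepithelial cells, was at 4.59 FPKM in siNT and 33.4 FPKM in siPAX9 (chr3:154797436-154901518), 7.27-fold higher. Among the tested genes, 272 had a larger increase. It stood in the 26.9 percentile of levels in siNT and the 83.0 percentile in siPAX9. EPCAM was 7.48 times MME in siNT, and MME was 2.00 times EPCAM in siPAX9.

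NGFR, the low-affinity neurotrophin receptor that marks basal cells, went the other way from MME. It was at 2.70 FPKM in siNT and 0.597 FPKM in siPAX9 (chr17:47572655-47651426), 4.52-fold lower, and 194 genes had a larger decrease. With 1 added to each value the log2 change shrank from -2.18 to -1.21. Its locus also holds LOC100288866, at 0.148 and 0.0403 FPKM, and MIR6165, listed at 0 in both groups. THY1, a lipid-anchored glycoprotein of basal and stromal cells, was at 0.0543 FPKM and 0.00629 FPKM (chr11:119252488-119369944), too low to compare. Its row shares a locus with USP2-AS1, at 0.758 and 0.202 FPKM.

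Of the luminal transcription factors, FOXA1 alone passed the threshold, and no test compared them. FOXA1, a forkhead factor that opens chromatin at luminal genes, was at 1.10 FPKM in siNT and 2.86 FPKM in siPAX9 (chr14:38058757-38064325), 2.60-fold higher. With 1 added to each value its log2 change was 0.88, under the threshold, which left 3 markers higher. GATA3, the zinc finger factor of luminal identity, was at 6.19 and 7.56 FPKM (chr10:8096667-8117164), a 1.22-fold difference. ELF5, the alveolar ETS factor, was listed at 0 in siNT and was at 0.0308 FPKM in siPAX9 (chr11:34500342-34535347). ELF5 and THY1 are thus markers that the table does not show above the floor in either group.

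ALDH1A3 was at 9.48 FPKM in siNT and 88.6 FPKM in siPAX9 (chr15:101419897-101610317), 9.35-fold higher, and 230 genes had a larger increase. Its level moved from the 46.7 percentile to the 94.5 percentile, and it passed EPCAM to become the third of the 10 markers. Its locus of 190 kb also holds LRRK1, at 5.21 and 4.39 FPKM, and LOC101927751, at 2.15 and 7.36 FPKM (log2 change 1.77). Whether the counting used strand is not given in the sources used here, and whether any reads are shared between these genes was not tested.

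**Figure D3:**
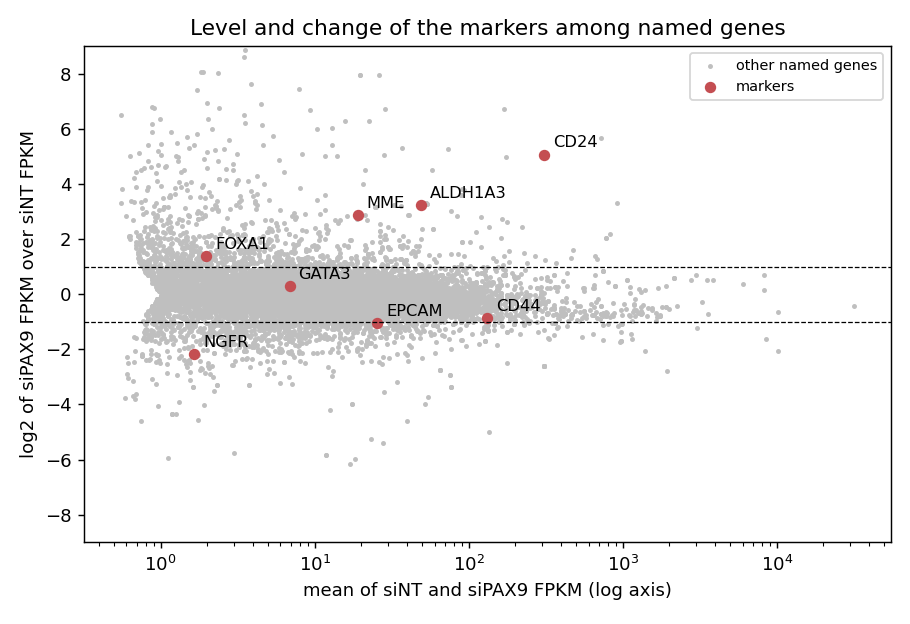
Log2 of siPAX9 over siNT FPKM against the mean FPKM (log axis) for named genes of at least 1 FPKM in the higher group (grey) with 8 markers in red. The dashed lines are the 2-fold thresholds. CD24, ALDH1A3, MME and FOXA1 lie above them, and NGFR and EPCAM below. The 130 genes listed at 0 in a group and 5 genes beyond the axis are not drawn.

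The 4-fold threshold left CD24, ALDH1A3 and MME higher and NGFR lower. Over all genes it called 3.20% higher and 1.75% lower. At 1.5-fold, 4 markers were higher (14.8% of all genes) and 3 lower (17.0%), the third being CD44.

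The promoters of the markers were read from RefSeq (GRCh38.p14) as 250 bases before to 50 after each start. Of the 10 markers, 7 matched, with 17 promoters, and EPCAM, THY1 and NGFR had no entry. The promoters of the 3 markers with the largest increases are shown because these mRNAs were higher together, with that of ELF5, which was near 0, for contrast. Capitals mark CG pairs.
CD24, chr6:106975416-106975715, minus strand: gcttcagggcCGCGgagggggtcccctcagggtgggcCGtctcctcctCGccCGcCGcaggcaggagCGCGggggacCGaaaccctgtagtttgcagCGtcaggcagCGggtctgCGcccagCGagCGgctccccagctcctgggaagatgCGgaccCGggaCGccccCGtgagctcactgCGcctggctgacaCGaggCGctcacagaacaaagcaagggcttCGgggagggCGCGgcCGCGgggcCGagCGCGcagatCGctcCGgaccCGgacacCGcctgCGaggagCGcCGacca
ALDH1A3, chr15:100879581-100879880, plus strand: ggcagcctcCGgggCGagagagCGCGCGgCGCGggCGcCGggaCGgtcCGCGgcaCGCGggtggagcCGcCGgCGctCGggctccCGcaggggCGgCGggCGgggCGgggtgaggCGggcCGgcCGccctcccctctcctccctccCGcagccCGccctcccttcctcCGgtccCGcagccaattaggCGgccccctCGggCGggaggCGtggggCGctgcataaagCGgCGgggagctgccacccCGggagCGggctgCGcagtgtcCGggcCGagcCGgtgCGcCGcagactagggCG
MME, chr3:155079620-155079919, plus strand: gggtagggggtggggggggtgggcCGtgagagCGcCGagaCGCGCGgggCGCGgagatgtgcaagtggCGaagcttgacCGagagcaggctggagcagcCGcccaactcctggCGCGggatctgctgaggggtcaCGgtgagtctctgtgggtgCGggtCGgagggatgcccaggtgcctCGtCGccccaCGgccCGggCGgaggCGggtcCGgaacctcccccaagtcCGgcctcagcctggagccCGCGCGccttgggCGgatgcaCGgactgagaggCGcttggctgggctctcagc
ELF5, chr11:34511675-34511974, minus strand: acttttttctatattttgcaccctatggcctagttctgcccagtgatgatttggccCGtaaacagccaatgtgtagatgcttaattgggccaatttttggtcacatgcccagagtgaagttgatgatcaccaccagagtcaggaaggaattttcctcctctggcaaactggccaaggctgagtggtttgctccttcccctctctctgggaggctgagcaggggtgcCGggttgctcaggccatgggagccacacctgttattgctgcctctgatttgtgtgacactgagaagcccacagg
The ALDH1A3 promoter held 46 CG pairs and was 81.7% G or C, and that of ELF5 held 2. The CD24 and MME promoters shown are the richest in CG pairs of their genes, since the 3 of CD24 held 21 to 36 pairs and the 4 of MME held 19 to 30. The median of 35116 promoters was 14 pairs and 58.7% G or C. The promoter of CD44, which was not called, held 18, and those of GATA3 held 5 to 36.

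Exact matches to short sequences were sought on both strands of these promoters. GCGTGACCA and GCGGAACGG, sequences that PAX9 is reported to bind, were in none of the 17 member promoters, and were in 0.157% and 0.225% of all promoters. The core GCGTGAC (2.52% of all) and the GATA sequence AGATAAG (2.68%) were also in none. The forkhead sequence TGTTTAC (3.42%) was in that of ELF5, the ETS sequence CCGGAAG (10.3%) in 1 of GATA3, and the E-box CACCTG (20.6%) in 5 promoters of CD24, MME, FOXA1 and ELF5. Each says only that these letters are or are not in the window.

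The genes around the markers were read as 12 lists of 189 symbols with no member among them. NGFRAP1, an older symbol of BEX3, which is in the same list, was the only one not in the table. The lists were chosen with earlier results of these data known, and are described by counts beside the 7.75% higher and 7.22% lower of all genes. Rescaling to the same FPKM sum adds 0.27 to every log2 change. It turned the share of higher calls among all calls from 51.8% to 72.8%. List counts are on the scale as deposited. A gene with a value under 1 FPKM in one group passed the filter only through the group in which it was higher. With 1 added to each FPKM, the higher calls became 3 for the epithelial and mesenchymal genes, 3 for the stromal, endothelial and immune markers, 1 for the basal genes and 0 for the CD44 genes, and the lower calls became 1 for the hormone-sensing genes.

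Basal keratins were abundant in both groups. Of 17 basal and myoepithelial genes at or above 1 FPKM, 2 were higher and none was lower. The basal keratins KRT5 (1558 and 1807 FPKM) and KRT17 (1718 and 2088 FPKM) were the most abundant, and CAV1, of membrane caveolae, was at 103 and 193 FPKM. MYLK (0.412 and 1.70 FPKM) and TAGLN (0.869 and 3.66 FPKM), which act in contraction, were higher. Of the other contractile genes, ACTA2 was not called (7.77 and 10.6 FPKM), and CNN1, MYH11 and ACTG2 were under 1 FPKM in both groups. Under rescaling 5 were higher.

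Of 7 hormone-sensing luminal genes, none was higher and 2 were lower. XBP1, a secretory-pathway factor, was at 66.2 and 26.4 FPKM, and the transcription factor MYB was at 1.28 and 0.508 FPKM. The mucin MUC1 was at 88.2 and 176 FPKM (log2 change 1.00, under the threshold before rounding), the simple keratin KRT18 at 212 and 119 FPKM, and AREG, a ligand of the epidermal growth factor receptor, at 85.2 and 48.0 FPKM. Under centring or rescaling, 1 gene of this list was higher. The hormone receptors ESR1 and PGR were under 1 FPKM in both groups.

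The luminal progenitor and secretory list held 4 higher and 1 lower of 10. SLPI, a secreted protease inhibitor, was at 296 and 1358 FPKM, and the ETS factors EHF (23.6 and 70.0 FPKM) and ELF3 (16.7 and 41.4 FPKM) were higher. ID2, a repressor of helix-loop-helix factors, was at 0.697 and 22.7 FPKM. LTF, the milk protein lactoferrin, was lower, at 137 and 43.6 FPKM, and the factor CEBPB was at 237 and 172 FPKM.

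Of 10 stem and progenitor factors, 3 were higher and 2 lower. NOTCH1 (21.5 and 45.8 FPKM), NOTCH3 (0.203 and 2.76 FPKM) and the progenitor factor SOX9 (1.39 and 9.01 FPKM) were higher. PROCR, a surface receptor used to mark mammary stem cells, was lower (36.0 and 14.3 FPKM), as was the growth factor brake LRIG1 (11.7 and 2.59 FPKM). ITGB1, the integrin chain CD29, was at 258 and 301 FPKM, and BMI1 at 53.5 and 39.0 FPKM.

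The genes of epithelial and mesenchymal state held 5 higher and 2 lower of 12. Epithelial cadherin CDH1 (45.3 and 124 FPKM) and the epithelial factors OVOL1 (0.0497 and 4.02 FPKM) and OVOL2 (3.06 and 6.70 FPKM) were higher. The mesenchymal genes VIM (301 and 53.5 FPKM) and CDH2 (5.06 and 1.44 FPKM) were lower, whereas FN1, the matrix protein fibronectin (0.588 and 25.2 FPKM), and the repressor ZEB2 (0.356 and 1.71 FPKM) were higher. The splicing factor ESRP1 was at 33.1 and 26.4 FPKM.

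Of 12 genes for CD44 ligands and cleavage, the hyaluronan synthase HAS3 was higher (2.12 and 4.52 FPKM) and the hyaluronan receptor HMMR (13.6 and 3.11 FPKM) and the proteoglycan VCAN (12.8 and 2.92 FPKM) were lower. The membrane linkers MSN (83.1 and 52.7 FPKM) and EZR (49.0 and 78.0 FPKM) and the gene HYAL3 (50.5 and 36.4 FPKM) were not called. Of 11 EPCAM partner and cleavage genes, none was lower. The protease inhibitor SPINT2 was at 180 and 173 FPKM and the tetraspanin CD9 at 69.3 and 79.9 FPKM.

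For the retinoic acid genes around ALDH1A3, 4 of 13 were higher and 1 lower. STRA6, a retinol transporter, was at 0.182 and 6.11 FPKM, CRABP2, which carries retinoic acid to its receptors, at 1.80 and 40.9 FPKM, RARRES1 at 1.64 and 8.51 FPKM, and DHRS3, which turns retinaldehyde back to retinol, at 22.1 and 73.3 FPKM. LRAT, which stores retinol as ester, was at 5.35 and 2.56 FPKM and was no longer lower with 1 added, centring or rescaling. The receptor RXRA (45.3 and 40.3 FPKM) and the carrier FABP5 (25.8 and 25.2 FPKM) were not called.

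For NGFR, 2 of 6 neurotrophin genes were higher, the ligand NTF4 (4.50 and 11.2 FPKM) and the receptor SORCS2 (0.0690 and 1.67 FPKM). BEX3, MAGED1 and SORT1 were at 82.1 and 84.6, 19.2 and 17.4, and 13.6 and 12.0 FPKM. Of the neprilysin family of MME, ECE1 (16.3 and 14.8 FPKM) and ECE2 (21.1 and 16.1 FPKM) were the 2 genes at or above 1 FPKM, and neither was called. Of 6 GATA, FOXA and ELF family genes none was called, among them ELF1 (24.2 and 30.5 FPKM), TRPS1 (16.4 and 11.9 FPKM) and ELF2 (11.8 and 10.2 FPKM). Under rescaling GATA2, at 0.0923 and 0.977 FPKM as deposited, passed 1 FPKM and was higher.

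**Figure D4:**
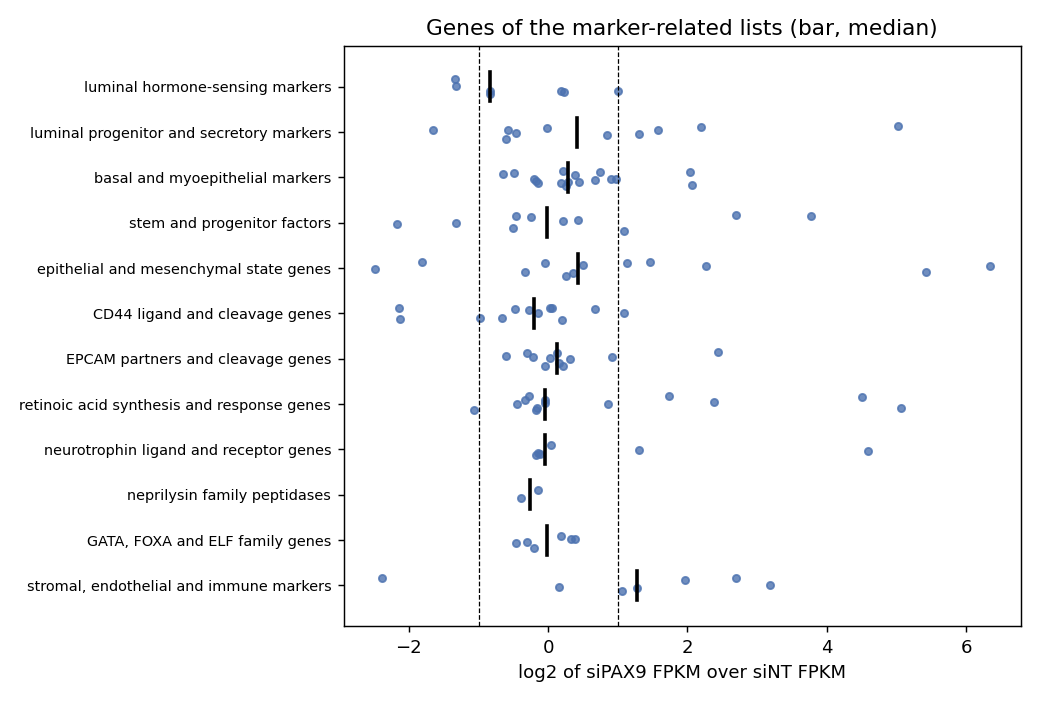
Log2 change (siPAX9 over siNT FPKM) of the genes of each list at or above 1 FPKM in the higher group, 1 point per gene with the median as a bar and the 2-fold thresholds dashed. The median is -0.83 for the hormone-sensing luminal genes, 0.28 for the basal genes and 1.28 for the stromal, endothelial and immune markers.

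Markers of other cell types moved beside the marker genes, and in both groups CD14 and DCN were above MME in level. Of 20 stromal, endothelial and immune markers, 7 reached 1 FPKM, 5 were higher and 1 lower, and the summed level of the 20 was 29.7 FPKM in siNT and 109 FPKM in siPAX9. COL3A1, CD3E and SELP were at 0 in both groups, and PTPRC was under 1 FPKM. The monocyte receptor CD14 (14.4 and 56.5 FPKM), the proteoglycan DCN (5.85 and 37.9 FPKM), the collagen COL1A1 (0.454 and 4.13 FPKM), FAP (2.07 and 4.33 FPKM) and KDR (0.798 and 1.94 FPKM) were higher. PECAM1 was at 2.58 and 0.495 FPKM, and CD68 at 3.38 and 3.77 FPKM. Their part in the changes of the markers was not tested.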

How the data were processed

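RNA-seq was made from MCF10A cells in 2 groups of 3 samples. Poly(A)-selected RNA was read from a single end. In Partek, the authors mapped to hg19 with Bowtie2 and used Cufflinks for quantification, per the labels. The deposited table holds 1 pooled FPKM per row and group, with 13978 of 41656 rows without a symbol. It also holds the authors' fold change, test statistic, p-value, q-value and call, which were not used. The table gives no counts or depth for these pooled values, and no interval was computed.

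For each symbol the row with the highest mean FPKM was used. The change is log2 of siPAX9 FPKM over siNT FPKM, without pseudocount. Functions were tested on simulated data. Members and lists were chosen with earlier results of these data known. Named genes were all members, PAX9, genes sharing a locus with a member, and in each list up to 3 genes of highest mean FPKM and up to 6 with the largest calls in each direction. ESR1, PGR, PTPRC, PSAT1, NGFRAP1, GATA2, ACTA2, CNN1, MYH11, ACTG2 and the markers at 0 were named after their values were seen. Copies of CD24 were sought with blastn 2.17.0 (word size 28, at least 80% identity over at least 150 bases) in stretches of 691 and 1511 bases around CD24P4. Loci are given from 1. Some genes of the lists are not reported here.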

Additional observations from a re-analysis of the deposited data

How the results depend on the processing

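With 1 pooled FPKM per group, no test, replicate check or leave-one-out value could be made. No paired analysis was possible because the table gives 1 pooled value per group. The number of markers lower by at least 2-fold, 2 as reported, became 1 with 1 added to each FPKM, centred on the median, rescaled to the same sum and at a fold of 4, where EPCAM was lost. It was also 1 when both groups had to reach 1 FPKM, or the higher group 5 FPKM, where NGFR was lost. The number higher, 4 as reported, was 3 with 1 added, with 5 FPKM in the higher group and at a fold of 4, FOXA1 being lost. The median log2 change of the markers, 0.83 as reported, was 1.58 with at least 5 FPKM in the higher group. Of 55 recomputed changes of single markers, none reversed, and 3 moved by over 1.5-fold, those of THY1 with 1 or 0.1 added and of NGFR with 1 added. Most of the 55 could not move. Each marker is on 1 row, so summing rows or keeping rows with 1 symbol returned the same values. Centring and rescaling shifted every log2 change by 0.07 and 0.27, less than 1.5-fold. Only changes of at least 2-fold could be labelled reversed. Neither these shifts nor an added constant could reverse them, so the lack of reversals is no check. Of 72 recomputed list counts, 13 moved by over 1.5 times. The list counts under rescaling and CD24 from the 4 rows over the chromosome 15 copy (log2 change of their sums 4.99) were added after the data were seen. The latter is counted among the 55 changes. Those rows are not an independent measurement of CD24, so their value is no check of its change.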
